A study of Mus musculus with 8 samples.

Results

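The amyloid-degrading peptidases are enzymes that cut amyloid beta, the peptide released from the amyloid precursor protein. They were followed as a fixed list of 9 genes (Mme, Ide, Ece1, Ece2, Mmp2, Mmp9, Mmp14, Pitrm1 and Thop1), matched on the gene symbol of the platform's probe table. Of these, 8 were named there and all 8 passed the filter on low values, among 14628 genes tested and 19505 genes named. Ece2 was not listed in that table and is not analysed here. The arrays came from hippocampi of 8 mice. Their genotype was B6.Cg-Tg(APPswe)E1-2Dbo/J, which carries a transgene for amyloid precursor protein with the Swedish mutation. All were 18 to 20 months of age and had been through the Morris water maze, a swimming test of spatial memory. The labels describe memory as impaired in 4 and intact in the other 4, with 1 array per mouse. Both groups carry the transgene, the labels do not name the promoter that drives it, and mice without it are not analysed here.

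Amyloid beta is cleared in the brain partly by proteolysis, and most of the peptidases known to do this bind zinc in the active site. Neprilysin (Mme) and the endothelin-converting enzymes (Ece1, Ece2) are related membrane proteins, neprilysin acting mainly outside the cell and the endothelin-converting enzymes also in acidic vesicles. Insulin-degrading enzyme (Ide) and the mitochondrial presequence protease (Pitrm1) share a fold with an inverted zinc motif and enclose short peptides in a chamber, while thimet oligopeptidase (Thop1) is a mostly cytosolic enzyme that trims neuropeptides. Mmp2 and Mmp9 are the gelatinases, secreted matrix metalloproteinases, and Mmp14 is a membrane-bound relative that activates Mmp2.

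For 7 of the 9 genes the RefSeq promoter table (GRCm38.p6) held a start site, with 12 windows in all, and Mmp2 and Mmp9 were not among them. To show 1 upstream region for each enzyme family, the 250 bases before the start are given below for Mme at chr3:63294961-63295210 (plus strand), Ide at chr19:37334545-37334794 (minus strand), Mmp14 at chr14:54431348-54431597 (plus strand) and Thop1 at chr10:81069833-81070082 (plus strand). None of these 4 windows overlaps an annotated gene. Capitals mark the motifs searched on both strands, which were the GC box (GGGCGG), the CCAAT box (CCAAT), the TATA box (TATAAA), the AP-1 site (TGAGTCA), the core of the NRF1 site (CGCATGCG) and the E-box (CACGTG).
Mme: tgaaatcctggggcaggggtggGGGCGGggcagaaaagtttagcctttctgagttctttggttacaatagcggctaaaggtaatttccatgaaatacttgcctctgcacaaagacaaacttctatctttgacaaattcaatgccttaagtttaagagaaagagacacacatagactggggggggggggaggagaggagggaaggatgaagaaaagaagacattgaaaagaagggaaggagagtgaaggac
Ide: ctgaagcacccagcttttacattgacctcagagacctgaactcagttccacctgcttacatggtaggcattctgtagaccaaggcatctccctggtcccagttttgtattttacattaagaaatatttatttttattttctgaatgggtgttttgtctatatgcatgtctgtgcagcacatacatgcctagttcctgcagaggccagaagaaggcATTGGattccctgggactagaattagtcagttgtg
Mmp14: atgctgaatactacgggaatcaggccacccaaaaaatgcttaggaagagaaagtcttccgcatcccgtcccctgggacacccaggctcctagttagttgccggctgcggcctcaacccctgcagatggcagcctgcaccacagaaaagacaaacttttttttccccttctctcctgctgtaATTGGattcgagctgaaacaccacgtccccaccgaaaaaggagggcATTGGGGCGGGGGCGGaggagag
Thop1: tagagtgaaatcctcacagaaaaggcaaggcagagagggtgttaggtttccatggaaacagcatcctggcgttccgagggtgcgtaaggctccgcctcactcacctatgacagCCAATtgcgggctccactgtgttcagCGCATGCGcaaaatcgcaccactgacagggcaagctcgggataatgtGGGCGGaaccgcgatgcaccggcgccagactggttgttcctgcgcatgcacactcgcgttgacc

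The upstream windows differed in base composition. The Thop1 window held 17 CG dinucleotides, 1 GC box, 1 CCAAT box and 1 NRF1 core. That core was found in 1.55% of the 32851 windows of the table, and in none of the other 11 windows of these genes. The Mmp14 window held 10 CG dinucleotides, 2 GC boxes and 2 CCAAT boxes, and the later CCAAT box shares bases with a GC box. The Ide window held 0 CG dinucleotides and 1 CCAAT box. Mme has 3 listed starts, and its first window held 2 CG dinucleotides and 1 GC box, whereas the windows before the other two starts, which lie inside the gene, held 27 each. The median over all windows was 6. GC boxes were present in 32.7% of all windows, CCAAT boxes in 33.8%, TATA boxes in 12.4%, AP-1 sites in 4.46% and E-boxes in 6.02%. None of the 12 windows held the TATA box, and the AP-1 site occurred only in the third Mme window. These matches describe the letters alone.

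Expression values are on the log2 scale of the RMA algorithm (robust multi-array average), where 1 unit is a doubling. The median of the tested genes was 7.75 to 7.79 on the 8 arrays, and array pairs correlated at 0.979 to 0.989 across genes. The hippocampal markers Prox1 (dentate granule cells) and Wfs1 (CA1) were present on every array, at 9.50 to 10.04 and 9.17 to 9.94. Probe sets for introns gave a background, with a 75th percentile of 6.30. By their means over 8 mice, Mme (6.0), Mmp2 (5.94) and Mmp9 (5.63) lay below that level, as did 18.0% of the genes tested, so that part of their signal may be background. Ide, Pitrm1, Thop1 and Ece1 lay above 98.0%, 98.1%, 96.2% and 93.7% of the 5222 intron probe sets, and Mmp14 above 80.0%. Choroid plexus markers were low in impaired mouse 3 and intact mouse 3, with scores (the mean deviation of the markers from their means) of -1.02 and -0.98 against -0.36 to 0.96 in the other 6 mice. Thalamus markers were low in intact mouse 3, at -1.30 against -0.26 to 0.45. In such tissue pieces, fewer cells of a type and less RNA per cell cannot be told apart.

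None of the 8 peptidases differed between mice with impaired and intact memory beyond the spread between mice. The values of Mme and Thop1 were lower in the impaired group, 1.17-fold and 1.12-fold, and the other 6 differed by at most 0.064 on the log2 scale. For all 8, the values of the groups overlapped. Comparing the groups, limma called 0 of the 8 at an adjusted p under 0.05, and 0 of all genes tested (0%). At an unadjusted p under 0.05 it called 0 of the 8, against 4.68% of all genes tested (685). Groups that do not overlap were found for 0 of the 8, against 2.58% of all genes. Values were lower in the impaired group for 5 of the 8 and higher for 3, against 52.9% and 47.1% of all genes tested. The median difference was -0.012 over the 8 and -0.0083 over all genes tested. Adjusted p-values ran from 0.961 to 0.997.

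**Figure D1:**
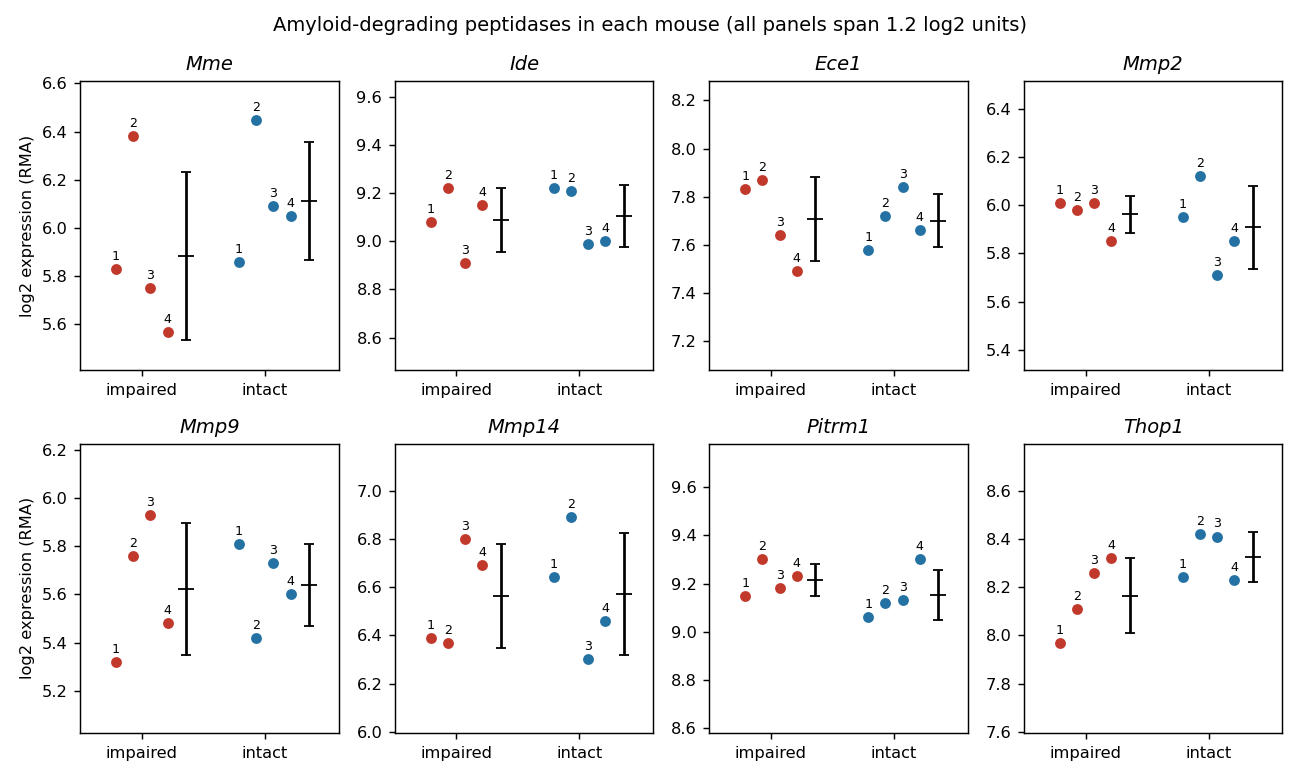
Log2 expression (RMA, vertical axis) of the 8 measured peptidases in each mouse, with red points for impaired and blue points for intact memory, mouse numbers above the points, and black bars for mean ± SD (n = 4 per group). The groups overlap in every panel, and the mice numbered 2 are the highest of their group for Mme, at 6.38 and 6.45.

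Neprilysin had the widest scatter of the list. Mme stood at 5.83, 6.38, 5.75 and 5.57 in impaired mice 1 to 4 and at 5.86, 6.45, 6.09 and 6.05 in intact mice 1 to 4. Impaired mice 1, 3 and 4 lay below every intact mouse, and impaired mouse 2 lay above all but intact mouse 2. The means were 5.88 ± 0.35 (SD, n = 4) and 6.11 ± 0.24 (SD, n = 4), a difference of -0.23 (standard error 0.17, limma, adjusted p = 0.961). The 95% interval ran from -0.61 to 0.15, that is an array signal in the impaired group from 0.65 to 1.11 times that of the intact group. Mean Mme lay below the 75th percentile of the intron probe sets, so part of this signal may be background. The interval therefore does not bound the transcript level. The pooled SD within groups, 0.30, exceeded that of 93.8% of the genes tested. The difference was -0.40 when impaired mouse 2 was left out (limma, unadjusted p = 0.0170, adjusted p = 0.920), -0.12 when intact mouse 2 was left out (adjusted p = 0.974) and -0.13 when impaired mouse 4 was left out (adjusted p = 0.906). The striatum score is given here for its small p with Mme among 128 relations. That relation did not pass the adjustment (exact permutation, adjusted p = 0.240). All 6 striatum markers tested had lower values in the impaired group, where 52.9% of all genes tested were lower. Of these markers, 0 had an unadjusted p under 0.05 (limma) and 0 had groups that do not overlap. The striatum score was -0.17 to 0.026 in the impaired and -0.10 to 0.48 in the intact mice. No fit of Mme with this score as a covariate was made.

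Endothelin-converting enzyme 1, which also makes the vasoconstrictor endothelin-1 from its precursor, showed hardly any difference between the group means. Ece1 was 7.83, 7.87, 7.64 and 7.49 in impaired mice 1 to 4 and 7.58, 7.72, 7.84 and 7.66 in intact mice 1 to 4. Impaired mice held both the highest and the lowest value. With means of 7.71 ± 0.18 (SD, n = 4) and 7.70 ± 0.11 (SD, n = 4), the difference was 0.0060 (standard error 0.10), with a 95% interval from -0.22 to 0.23.

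Of the enzymes with the inverted zinc motif, Ide, which degrades insulin as well as amyloid beta, was 9.08, 9.22, 8.91 and 9.15 in impaired mice 1 to 4 and 9.22, 9.21, 8.99 and 9.0 in intact mice 1 to 4. The lowest values of each group were 8.91 and 8.99, in the mice numbered 3, which also had the lowest choroid plexus scores. Its difference was -0.017 (standard error 0.097, 95% interval from -0.23 to 0.20), and it was 0.044 with the plexus score as a covariate and 0.058 with the plexus and thalamus scores. Over the 8 mice, Ide and the plexus score had r = 0.67 (exact permutation p = 0.0783, adjusted p = 0.711; rho = 0.69, p = 0.0694, adjusted p = 0.818), and r was 0.074 without the 2 mice farthest from the median score, so that the relation rests on them. Pitrm1, the peptidase of the mitochondrial matrix that clears cleaved targeting sequences, was 9.15, 9.30, 9.18 and 9.23 in impaired mice and 9.06, 9.12, 9.13 and 9.30 in intact mice 1 to 4. It had the smallest scatter of the list, with a pooled SD of 0.087, above that of 12.8% of the genes tested. Apart from intact mouse 4, every intact value was below every impaired value. The difference was 0.064 (standard error 0.082, limma, adjusted p = 0.965), and the 95% interval from -0.12 to 0.25 covers levels between 0.92 and 1.19 times the intact level. With intact mouse 4 left out it was 0.11 (adjusted p = 0.887).

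Thimet oligopeptidase was the member with the smallest unadjusted p. Thop1 was 7.97, 8.11, 8.26 and 8.32 in impaired mice 1 to 4 and 8.24, 8.42, 8.41 and 8.23 in intact mice 1 to 4. Impaired mice 1 and 2 lay below all intact mice, and impaired mice 3 and 4 lay within the intact range. The means were 8.17 ± 0.16 (SD, n = 4) and 8.33 ± 0.11 (SD, n = 4), a difference of -0.16 with a standard error of 0.099 (limma, unadjusted p = 0.136, adjusted p = 0.961) and a 95% interval from -0.38 to 0.059. Without impaired mouse 1 it was -0.093 (adjusted p = 0.999). Markers of CA3 pyramidal neurons were lower in the impaired group for 6 of 7, where 52.9% of all genes tested were lower. Other marker lists went either way, with 13 of 13 choroid plexus markers lower and 12 of 12 thalamus markers higher. The CA3 score is given here for its small p with Thop1 among 128 relations, which did not pass the adjustment (exact permutation, adjusted p = 0.149). It was -0.21 to 0.11 in the impaired and -0.036 to 0.13 in the intact group. No fit of Thop1 with this score as a covariate was made.

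The matrix metalloproteinases did not separate the groups either. Mmp2 was 6.01, 5.98, 6.01 and 5.85 in impaired mice 1 to 4 and 5.95, 6.12, 5.71 and 5.85 in intact mice 1 to 4, a difference of 0.052 (standard error 0.099). The impaired values, with an SD of 0.077, lay within the intact range. Mmp9, the gelatinase best known for a role in synaptic plasticity, was 5.32, 5.76, 5.93 and 5.48 in impaired and 5.81, 5.42, 5.73 and 5.60 in intact mice 1 to 4. Its lowest and highest values both came from impaired mice, and the difference was -0.014 (standard error 0.14, 95% interval from -0.32 to 0.29). Mmp14 was 6.39, 6.37, 6.80 and 6.69 in impaired and 6.64, 6.89, 6.30 and 6.46 in intact mice 1 to 4. Each group held a pair of high and a pair of low mice, and the difference was -0.011 (standard error 0.14, 95% interval from -0.32 to 0.30).

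**Figure D2:**
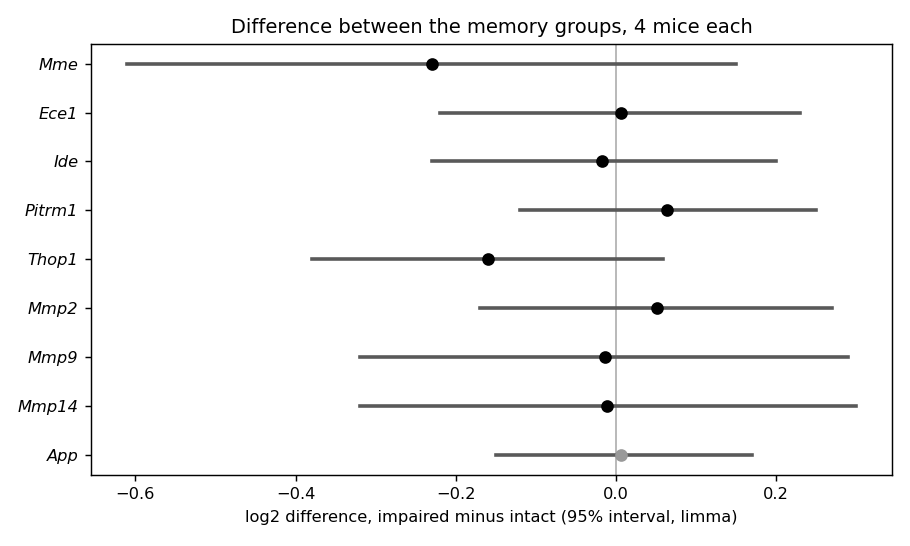
Log2 difference (impaired minus intact, horizontal axis) of the 8 peptidases and App, with points for the estimate and bars for the 95% interval from limma (4 mice per group). All intervals include 0, and they are widest for Mme, from -0.61 to 0.15.

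App, the source of the peptide, for which it is not known here whether the probes also detect the transgene, was 12.64 ± 0.058 (SD, n = 4) in the impaired and 12.63 ± 0.030 (SD, n = 4) in the intact group. Its difference was 0.0063 (standard error 0.072).

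For 3 of the 8, the sign of the difference was the same in all settings tried. The settings use largely the same mice, and the share of all genes that keep their sign was not counted. A kept sign is therefore not evidence of a difference. Mme and Thop1 were lower in the impaired group and Pitrm1 higher in every setting in which they were tested (18, 19 and 19 settings), with ranges of -0.40 to -0.12, -0.21 to -0.093 and 0.021 to 0.11. Each of Ide, Ece1, Mmp2, Mmp9 and Mmp14 changed sign when at least 1 mouse was left out. Neither scaling alternative turned the sign of any of the 8. No setting brought one past an adjusted p of 0.05, and the smallest was 0.765, for Thop1 without impaired mouse 4.

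**Figure D3:**
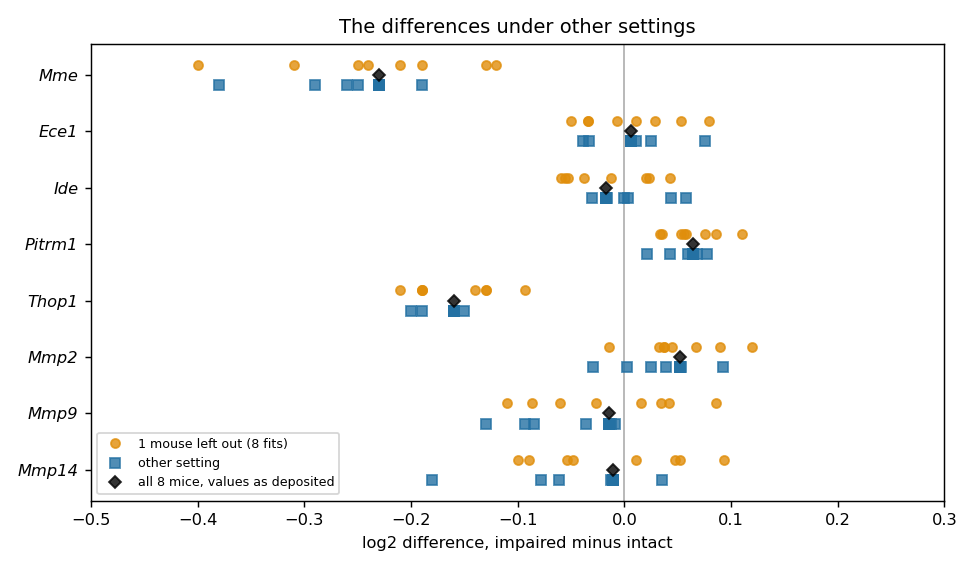
Log2 difference (impaired minus intact, horizontal axis) of each peptidase with all 8 mice (black diamonds), with 1 mouse left out (orange circles) and under the other settings of scaling, filter, prior, block, covariates and a pair of mice left out (blue squares). Mme and Thop1 stay below 0 and Pitrm1 above 0, while the points of the other 5 lie on both sides.

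Genes around these enzymes were described from 8 lists, made up of relatives, other proteases of amyloid beta, inhibitors, activators and peptide precursors, which hold 74 genes. Of these, 68 were named in the probe table and 50 were tested. Values were higher in the impaired group for 27 and lower for 23, with a median difference of 0.039. At an unadjusted p under 0.05, limma called 0 as higher and 2 as lower, where 2.52% of all genes tested were called as lower, and 0 passed the adjustment over all genes. For each list the genes with the smallest p are named, and being chosen for it their p-values support nothing.

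Among relatives of the enzymes, the neprilysin family had 2 tested genes, Kel (0.14, standard error 0.18) and the neuronal Ecel1 (-0.068, standard error 0.19). In the Ide family, 3 of 4 were lower, among them the respiratory complex III core protein Uqcrc1 (-0.15, standard error 0.079) and the mitochondrial processing peptidase subunit Pmpca (-0.065, standard error 0.084). Leaving out 1 mouse gave -0.10 to -0.014 for Pmpca, the latter without intact mouse 2. Nln, the closest relative of Thop1, differed by 0.14 (standard error 0.086), opposite in sign to Thop1, and the mitochondrial peptidase Mipep by -0.027 (standard error 0.11). None of these 6 passed the adjustment (limma, adjusted p of 0.961 or more). Of 20 other matrix metalloproteinases listed, 18 were named and 7 tested, with 2 higher and 5 lower, led by Mmp19 (-0.19, standard error 0.13) and Mmp23 (0.19, standard error 0.14). Mmp19, whose mean level lay below the 75th percentile of the intron probe sets, was at -0.094 without impaired mouse 3 and -0.10 without intact mouse 4. Mmp23 was at 0.11 without impaired mouse 4 and 0.064 without intact mouse 4.

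Of 10 tested other proteases of amyloid beta, 5 were higher and 5 lower. Ace, angiotensin-converting enzyme, had a difference of -0.45 (standard error 0.33, limma, adjusted p = 0.961). It was 7.55, 7.04, 6.65 and 7.82 in impaired mice 1 to 4 and 8.47, 7.82, 6.78 and 7.79 in intact mice 1 to 4. Without intact mouse 1 the difference was -0.20, without impaired mouse 3 it was -0.25, and without intact mouse 3 it was -0.76. The mice with low Ace were those with low choroid plexus scores, which were 0.15, -0.36, -1.02 and 0.26 in the impaired and 0.96, 0.58, -0.98 and 0.42 in the intact mice. With that score as a covariate the difference of Ace was -0.047 (standard error 0.11), and with the thalamus score as well it was 0.034. The correlation of Ace with the score was not tested, and neither was the cause of the difference. The mean of each of the 13 measured plexus markers was lower in the impaired mice, where 52.9% of all genes tested were lower. Of these markers, 0 had an unadjusted p under 0.05 (limma) and 0 had groups that do not overlap. As markers of 1 tissue they are not 13 independent results. The lysosomal protease Ctsl was 8.80 ± 0.053 (SD, n = 4) in the impaired and 8.66 ± 0.11 (SD, n = 4) in the intact group, a difference of 0.14 (limma, adjusted p = 0.961), which was 0.087 without intact mouse 3. Its groups do not overlap, as in 2.58% of all genes tested.

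Of the inhibitors, 5 were higher and 3 lower, and 7 and 1 after quantile normalization. That step also moved all genes tested, from 6893 higher and 7735 lower to 7436 higher and 7192 lower. Reck, a membrane-anchored inhibitor of Mmp2, Mmp9 and Mmp14, was 6.38, 6.39, 6.43 and 6.17 in impaired mice 1 to 4 and 6.56, 6.67, 6.48 and 6.46 in intact mice 1 to 4. Every impaired value was below every intact value, as in 2.58% of all genes in either direction. The difference of Reck was -0.20 (standard error 0.088, limma, unadjusted p = 0.0454, adjusted p = 0.961), and 18 other settings gave -0.25 to -0.14. Serpinf2, the plasmin inhibitor, differed by 0.16 (standard error 0.10). Timp2, which takes part in the activation of Mmp2 by Mmp14, was 10.28 in the impaired and 10.30 in the intact group, and this gene lies outside the naming rule. Of the activators and receptors, 5 were higher and 1 lower, led by the hyaluronan receptor Cd44 (0.21, standard error 0.10), which can hold Mmp9 at the cell surface, and Furin (0.17, standard error 0.090), the convertase that activates Mmp14. Cd44 was at 0.13 without intact mouse 1, and Furin at 0.10 without intact mouse 3.

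Among precursors of peptides that these enzymes cut, 7 were higher and 4 lower, and 9 and 2 after quantile normalization. The number of higher values rose over all genes tested too, from 6893 to 7436 of 14628. Pdyn, the dynorphin precursor, was 7.23, 7.14, 7.21 and 7.01 in impaired mice 1 to 4 and 7.32, 7.63, 7.21 and 7.33 in intact mice 1 to 4, a difference of -0.23 (standard error 0.10, limma, unadjusted p = 0.0481, adjusted p = 0.961). Its highest value, 7.63, came from intact mouse 2, and without that mouse the difference was -0.14. Edn1, the precursor on which Ece1 acts, differed by 0.20 (standard error 0.096), and its mean level, like those of Kel and Mmp19, lay below the 75th percentile of the intron probe sets.

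**Figure D4:**
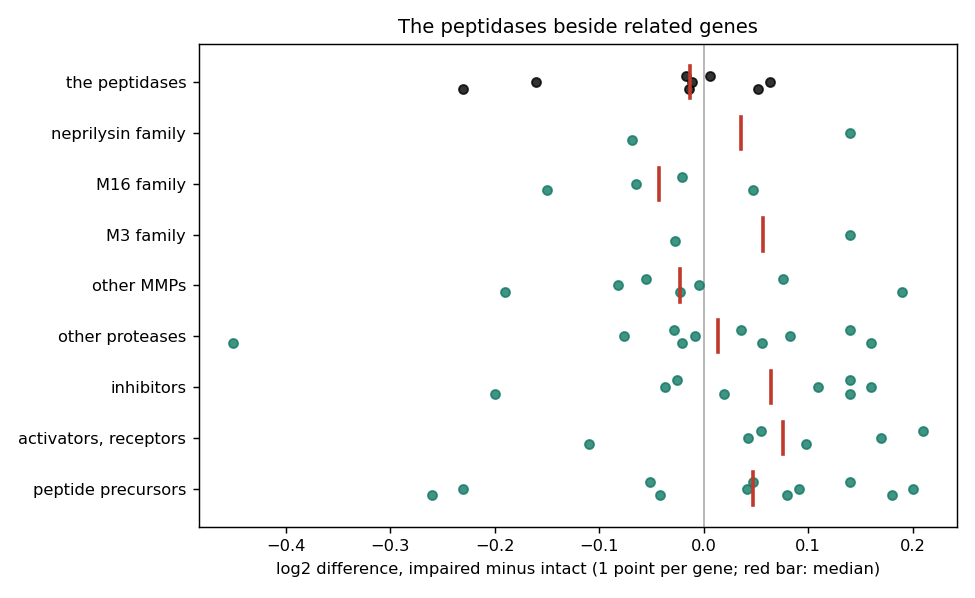
Log2 difference (impaired minus intact, horizontal axis) of each tested gene, 1 point per gene, for the peptidases (black) and the 8 lists of related genes (green), with red bars for the median of each list. Points lie on both sides of 0 in every list, and Ace at -0.45 lies farthest from it.

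Across the 8 mice, none of the relations between the peptidases and markers of cell types or regions passed the adjustment, and the 4 with the smallest p are given. Each of the 8 was set against 16 marker scores, 128 relations in all, tested by exact permutation over the 40320 pairings of the mice (two-sided). Thop1 went with the CA3 score (Pearson's r = 0.90, exact permutation p = 0.00233, adjusted p = 0.149; Spearman's rho = 0.86, p = 0.0107, adjusted p = 0.457). Without the 2 mice farthest from the median CA3 score, r was 0.63. Mmp9 ran opposite to the interneuron score (r = -0.89, exact permutation p = 0.00188, adjusted p = 0.149; rho = -0.95, p = 0.00114, adjusted p = 0.146), and r was -0.85 without the 2 farthest mice. Mean Mmp9, like mean Mme, lay below the 75th percentile of the intron probe sets, so part of these signals may be background. Mmp14 followed the microglia score (r = 0.85, exact permutation p = 0.00751, adjusted p = 0.240; rho = 0.81, p = 0.0218, adjusted p = 0.465), with r = 0.84 without the 2 farthest mice. It was not particular to microglia, since Mmp14 had r = 0.78 with the oligodendrocyte precursor score (exact permutation, adjusted p = 0.611). With the oligodendrocyte score r was 0.71 (adjusted p = 0.669). Without the 2 farthest mice these were 0.37 and 0.39. Mme followed the striatum score (r = 0.78, exact permutation p = 0.00615, adjusted p = 0.240; rho = 0.86, p = 0.0107, adjusted p = 0.457), with r = 0.83 without the 2 farthest mice. The highest striatum score, 0.48, and the highest Mme value, 6.45, both belonged to intact mouse 2. Within groups, that is on deviations from the group means permuted inside each group (576 pairings, a test added after seeing the data), r was -0.89 for Mmp9 (exact permutation p = 0.00521, adjusted p = 0.556), 0.87 for Mmp14 (p = 0.00868, adjusted p = 0.556), 0.73 for Mme (p = 0.0330, adjusted p = 0.615) and 0.86 for Thop1 (p = 0.0451, adjusted p = 0.615). The matching rank correlations were -1, 0.90, 0.60 and 0.80 (exact permutation, adjusted p of 0.222, 0.778, 1.00 and 1.00). These 4 were chosen before the group means were taken out, and within groups other relations were as close. Mme had r = -0.81 with the dentate granule score (exact permutation p = 0.0503, adjusted p = 0.615; rho = -1, adjusted p = 0.222). Mmp14 had r = 0.81 with the score of oligodendrocyte precursors (exact permutation p = 0.0365, adjusted p = 0.615). The labels name no batch.

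**Figure D5:**
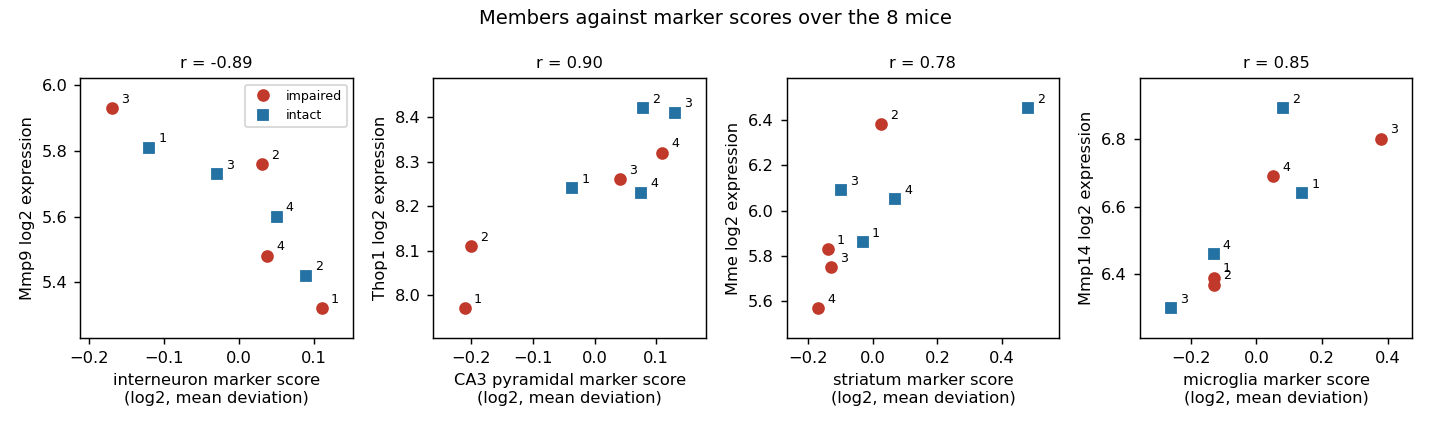
Log2 expression of Mmp9, Thop1, Mme and Mmp14 (vertical axes) against the score of interneuron, CA3 pyramidal, striatum and microglia markers (horizontal axes, mean log2 deviation of the markers from their means), 1 point per mouse, with red circles for impaired and blue squares for intact memory. The 4 relations are those with the smallest p among 128, with r of -0.89, 0.90, 0.78 and 0.85, and in the Mme panel impaired mice 1, 3 and 4 lie below every intact mouse on both axes.

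Among the peptidases themselves, 28 pairs were compared and none was related after adjustment. The closest pairs were Ece1 and Mmp14 (r = -0.65, exact permutation p = 0.0859, adjusted p = 0.990; rho = -0.67, p = 0.0831, adjusted p = 1.00; r = -0.61 without the 2 farthest mice) and Mme and Ece1 (r = 0.64, exact permutation p = 0.0941, adjusted p = 0.990; rho = 0.69, p = 0.0694, adjusted p = 1.00; r = 0.67 without the 2 farthest mice). Mmp2 and its activator Mmp14 had r = 0.59 (exact permutation p = 0.129, adjusted p = 0.990; rho = 0.48, p = 0.243, adjusted p = 1.00), and r was -0.090 without the 2 farthest mice, so that this relation rests on them.

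The genes most alike in pattern were those with the smallest root mean square difference of centred log2 values over the 8 mice. For Mme these were Xylt2 (0.110) and Vrk1 (0.121), where Mme itself varied about its mean by 0.286. For Thop1 they were Nrsn2 and Lin28a, for Ide Pomp and Abhd6, for Pitrm1 Grb2 and Psmb2, and for Ece1 Jpt1 and Tcp1. For Mmp14 they were Hspa12b and Abhd16a, for Mmp2 Mkln1 and Setd7, and for Mmp9 Trim13 and Nt5c3.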

How the data were processed

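One-colour mouse arrays were made from hippocampal RNA of 8 mice, per the labels' protocols from 1 ng of total RNA amplified to sense-strand cDNA. The deposited log2 values were made by the authors with RMA, per the submitters' processing notes. The build and the RMA version were not given in the sources used here. RMA makes arrays comparable and compresses differences of dim genes.

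The probe table gives a single symbol for 19572 of 22206 target probe sets, more than 1 symbol for 0 and no entry for 2634. All 19572 matched a RefSeq gene of GRCm38.p6. Each of the 19505 genes was represented by its brightest probe set by mean (55 genes had more than 1), and the 25% of genes with the lowest mean, below 5.33, were left out. Each of the 8 peptidases had 1 probe set. The labels call the samples biological replicates.

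Impaired and intact mice were compared with lmFit and eBayes of limma 3.58.1 (R 4.3.3). Tests were two-sided, and p-values were adjusted by Benjamini and Hochberg's method across the 14628 genes tested. The procedure was tested on simulated data. The number of arrays limits the precision. Alternatives were other scaling, filters, probe summaries, prior, covariates, the replicate number as a block, and leaving out mice. Named were all members, App, the 2 genes of each related list with the smallest p and the 2 genes nearest to each member in pattern. The members, lists and tests were chosen with earlier results of these data known.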

Additional observations from a re-analysis of the deposited data

Results flagged for a closer look

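Mmp2 in impaired mouse 4 was 5.85, apart from the 5.98 to 6.01 of the other 3 impaired mice. Its gap to the nearest of them was 0.840 of the range of the group, above Dixon's 95% critical value for 4 samples. The group's spread was small (SD 0.077), and 5.85 lies within the intact values. Among the 18 groups of 4 screened (8 peptidases and App), this was the only one, and chance marks about 1 group in 20.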

How the results depend on the processing

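Under all settings run, 0 of the 8 peptidases passed an adjusted p of 0.05, also without both mice numbered 3. The settings with both scores or without both mice 3 were chosen after seeing the data. Signs turned as follows, and the cause was not tested. With the plexus score, Ide was 0.044, Ece1 -0.039, Mmp14 0.035, Ecel1 0.051 and App -0.0070. With the thalamus score, Mipep was 0.032 and App -0.0043. With both scores, Ide was 0.058, Ece1 -0.033, Ace 0.034, Mipep 0.00085 and App -0.035. Without both mice 3, Ide was 0.0036, Mmp2 -0.029, Mipep 0.031 and App -0.0011. Leaving out 1 mouse gave -0.059 to 0.043 for Ide, -0.050 to 0.079 for Ece1, -0.014 to 0.12 for Mmp2, -0.11 to 0.086 for Mmp9, -0.10 to 0.093 for Mmp14, -0.015 to 0.030 for App, -0.036 to 0.25 for Kel, -0.23 to 0.088 for Ecel1 and -0.12 to 0.045 for Mipep. It gave -0.40 to -0.12 for Mme, -0.21 to -0.093 for Thop1 and 0.033 to 0.11 for Pitrm1.

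Over all genes, an intensity trend with a robust prior called 1 gene past the adjustment, which is none of the peptidases. With the lowest 50% of genes left out, 434 had an unadjusted p under 0.05, since fewer genes were tested, and Mme, Mmp2, Mmp9 and Mmp14 were not tested there. Groups that do not overlap numbered 622 to 1059 without 1 mouse and 1380 without both mice 3, since fewer samples overlap less. Same-numbered mice did not deviate together (r of 0.03, 0.03, -0.05 and -0.10 across genes, and 0 of 8 mice correlated best with their own number). With the replicate block, 633 genes had an unadjusted p under 0.05 and 0 passed the adjustment, with Mme at -0.23 (limma, adjusted p = 0.986). Mme, Mmp2 and Mmp9 lay below the 75th percentile of the intron probe sets, which limits what the arrays can show for them.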
